A study of Mus musculus with 8 samples.

Results

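The genes described here are 8 feedback brakes on mitogen-activated protein (MAP) kinase signalling: the dual-specificity phosphatases Dusp1, Dusp2, Dusp4, Dusp5, Dusp6 and Dusp10, and the Sprouty genes Spry1 and Spry2. They were taken by symbol from the 24016 genes of the deposited expression table, which held all 8. Levels are counts per 1000000 gene-assigned reads (CPM). All 8 reached at least 1 CPM in at least 2 of the 8 libraries and were tested. Spry2 was the lowest of them and reached that level in 4 libraries.

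The libraries were RNA sequencing of CD4+ T cells from mouse spleen, sorted on a fluorescent (GFP) Foxp3 reporter, Foxp3 being the defining factor of regulatory T (Treg) cells. There were 4 groups of 2 libraries, called replicates A and B: reporter-positive (monoclonal Treg) and reporter-negative (monoclonal non-Treg) cells of strain NOD.TCRab.FoxP3GFP.Rag-/-, and reporter-positive (polyclonal Treg) and reporter-negative (polyclonal non-Treg) cells of strain NOD.FoxP3GFP. All groups carried the NOD background, which is prone to autoimmune diabetes, and the reporter allele. The monoclonal cells, which the labels also call NT in a series named after nuclear transfer, carried 1 αβ T cell receptor and lacked a Rag gene, while the polyclonal cells, also called WT, had a diverse repertoire. Receptor, Rag genotype and strain differed together between the mice and cannot be told apart. The labels give neither ages nor whether each replicate was its own animal, and p-values here cover only how far these samples spread, possibly for technical reasons.

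MAP kinases need both phosphates of their activation loop to be fully active, and the dual-specificity phosphatases can remove both. Dusp1, Dusp2, Dusp4 and Dusp5 encode nuclear enzymes that are transcribed soon after a cell is stimulated, and Dusp5 acts on ERK. Dusp6 encodes a cytoplasmic ERK phosphatase, and Dusp10 one that prefers the stress kinases p38 and JNK. Sprouty proteins act higher up and restrain the activation of Ras and Raf below receptors. Several of these genes are themselves induced by MAP kinase activity, which makes them a negative feedback loop, and in T cells the T cell receptor drives the ERK pathway through the Ras activator Rasgrp1.

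Promoters are shown for 3 members, Dusp1, Dusp5 and Spry1, because these differed most between the mice. The windows run from 250 bases before to 50 bases after the annotated start, from RefSeq on GRCm38.p6, which is not the build of the expression table. They lie at chr17:26508423-26508722 on the minus strand (Dusp1), chr19:53528895-53529194 on the plus strand (Dusp5) and chr3:37639697-37639996 on the plus strand (Spry1). Capitals mark matches to the motifs named in the next paragraph, except NFAT, which had no match in these 3 windows.
Dusp1: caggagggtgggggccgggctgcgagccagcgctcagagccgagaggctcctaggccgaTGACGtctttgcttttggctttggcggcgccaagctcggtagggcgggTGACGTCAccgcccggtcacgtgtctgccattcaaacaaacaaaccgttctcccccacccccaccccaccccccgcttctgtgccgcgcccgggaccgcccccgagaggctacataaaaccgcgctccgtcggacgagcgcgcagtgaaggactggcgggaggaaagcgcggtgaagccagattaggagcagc
Dusp5: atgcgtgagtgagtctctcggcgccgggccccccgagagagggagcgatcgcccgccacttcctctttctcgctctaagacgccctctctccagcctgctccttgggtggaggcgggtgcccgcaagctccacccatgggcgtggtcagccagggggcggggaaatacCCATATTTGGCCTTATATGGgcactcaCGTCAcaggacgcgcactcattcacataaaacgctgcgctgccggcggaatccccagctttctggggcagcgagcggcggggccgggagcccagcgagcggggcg
Spry1: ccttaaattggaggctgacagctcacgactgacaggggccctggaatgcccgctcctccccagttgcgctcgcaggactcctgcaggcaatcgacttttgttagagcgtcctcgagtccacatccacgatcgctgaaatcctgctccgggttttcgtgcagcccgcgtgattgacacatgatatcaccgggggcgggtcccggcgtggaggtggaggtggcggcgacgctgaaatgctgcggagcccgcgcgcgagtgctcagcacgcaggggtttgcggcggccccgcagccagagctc

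Both strands of 7 member windows were searched, and Dusp4 is named only. The motifs were the cyclic AMP response element (CRE, TGACGTCA), its core TGACG, AP-1 (TGANTCA), STAT (TTCNNNGAA), EGR (GCGNGGGCG), ETS (CCGGAAG), forkhead (GTAAACA), NFAT (GGAAAA), the CArG box bound by serum response factor, and NF-kB. Dusp1 held a CRE 143 to 136 bases before its start, a motif found in 1.8% of the 32851 windows of the table. That match contains the core on each strand, and a separate core lies 191 to 187 bases before the start. Dusp5 held a pair of adjoining CArG boxes, 82 to 73 and 72 to 63 bases before its start, and 1.6% of all windows held at least 1. It also held a CRE core, as did 20.8% of all windows. The Spry1, Dusp6 and Dusp10 windows matched no motif searched, and Dusp2 matched the EGR motif, which 5.6% of all windows held, and the CRE core. Spry2 matched the NFAT motif 2 times, and 23.4% of all windows held it. All 7 windows were GC-rich, from 57.3% in Dusp6 to 70.7% in Dusp2, against a median of 52.7% over all windows. A match describes letters in a window and shows no binding.

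Depth was 14076330 to 19722321 reads per library. A floor of 3 reads, an approximate 95% upper limit for a count of 0 under counting error alone, corresponded to 0.152 to 0.213 CPM. The libraries also held transcripts of other cell types, above all the monoclonal ones. The summed level of all 9 dendritic cell markers was 424 to 470 CPM in Treg and 1766 to 2021 CPM in non-Treg libraries of monoclonal mice, against 16.3 to 20.3 CPM in Treg libraries of polyclonal mice, where Batf3 and Clec9a were at 0, and 38.3 to 45.7 CPM in their non-Treg libraries. For 9 of 10 myeloid markers the sums were 331 to 596, 1179 to 1210, 31.0 to 45.6 and 64.0 to 68.0 CPM in the same order. For all 5 antigen presentation markers, which include MHC class II genes, they were 4822 to 6500, 18702 to 20962, 69.3 to 84.5 and 176 to 229 CPM. For all 6 neutrophil markers they were 183 to 1176, 68.6 to 364, 0.355 to 1.42 and 0.904 to 1.84 CPM, with Retnlg at 0 in both polyclonal groups and Camp at 0 in polyclonal non-Treg libraries. For all 6 B cell markers they were 44.9 to 63.1, 216 to 257, 28.2 to 45.2 and 43.2 to 66.4 CPM, with Pax5 at 0 in every group but monoclonal non-Treg and Ms4a1 at 0 in monoclonal Treg. Natural killer cell markers summed to 90.9 to 102, 92.3 to 102, 24.6 to 32.1 and 56.2 to 58.0 CPM, and CD8 T cell markers to 17.1 to 19.8, 12.1 to 12.2, 5.68 to 7.71 and 6.20 to 6.71 CPM. The 4 Treg markers followed the labels, with sums of 5175 to 5297, 632 to 782, 4974 to 5601 and 453 to 466 CPM. For 2 of the 4 the Treg effect was smaller in monoclonal than in polyclonal mice. The limma log2 differences were -1.89 ± 0.17 for Foxp3 (adjusted p = 2.42e-05) and -1.25 ± 0.30 for Il2ra (adjusted p = 0.0188). Foxp3 rose by 2.90 ± 0.12 in monoclonal and by 4.78 ± 0.12 in polyclonal Treg cells. Between non-Treg cells it was higher in monoclonal mice (2.10 ± 0.12, limma, adjusted p = 1.31e-08). T cell markers, 7 of 8, summed to 4039 to 4134, 3509 to 3687, 4769 to 5780 and 5588 to 5720 CPM. In bulk RNA, fewer cells of a type and less RNA per cell cannot be told apart, and the part of these other transcripts in the results that follow was not tested except where a value is given.

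**Figure D1:**
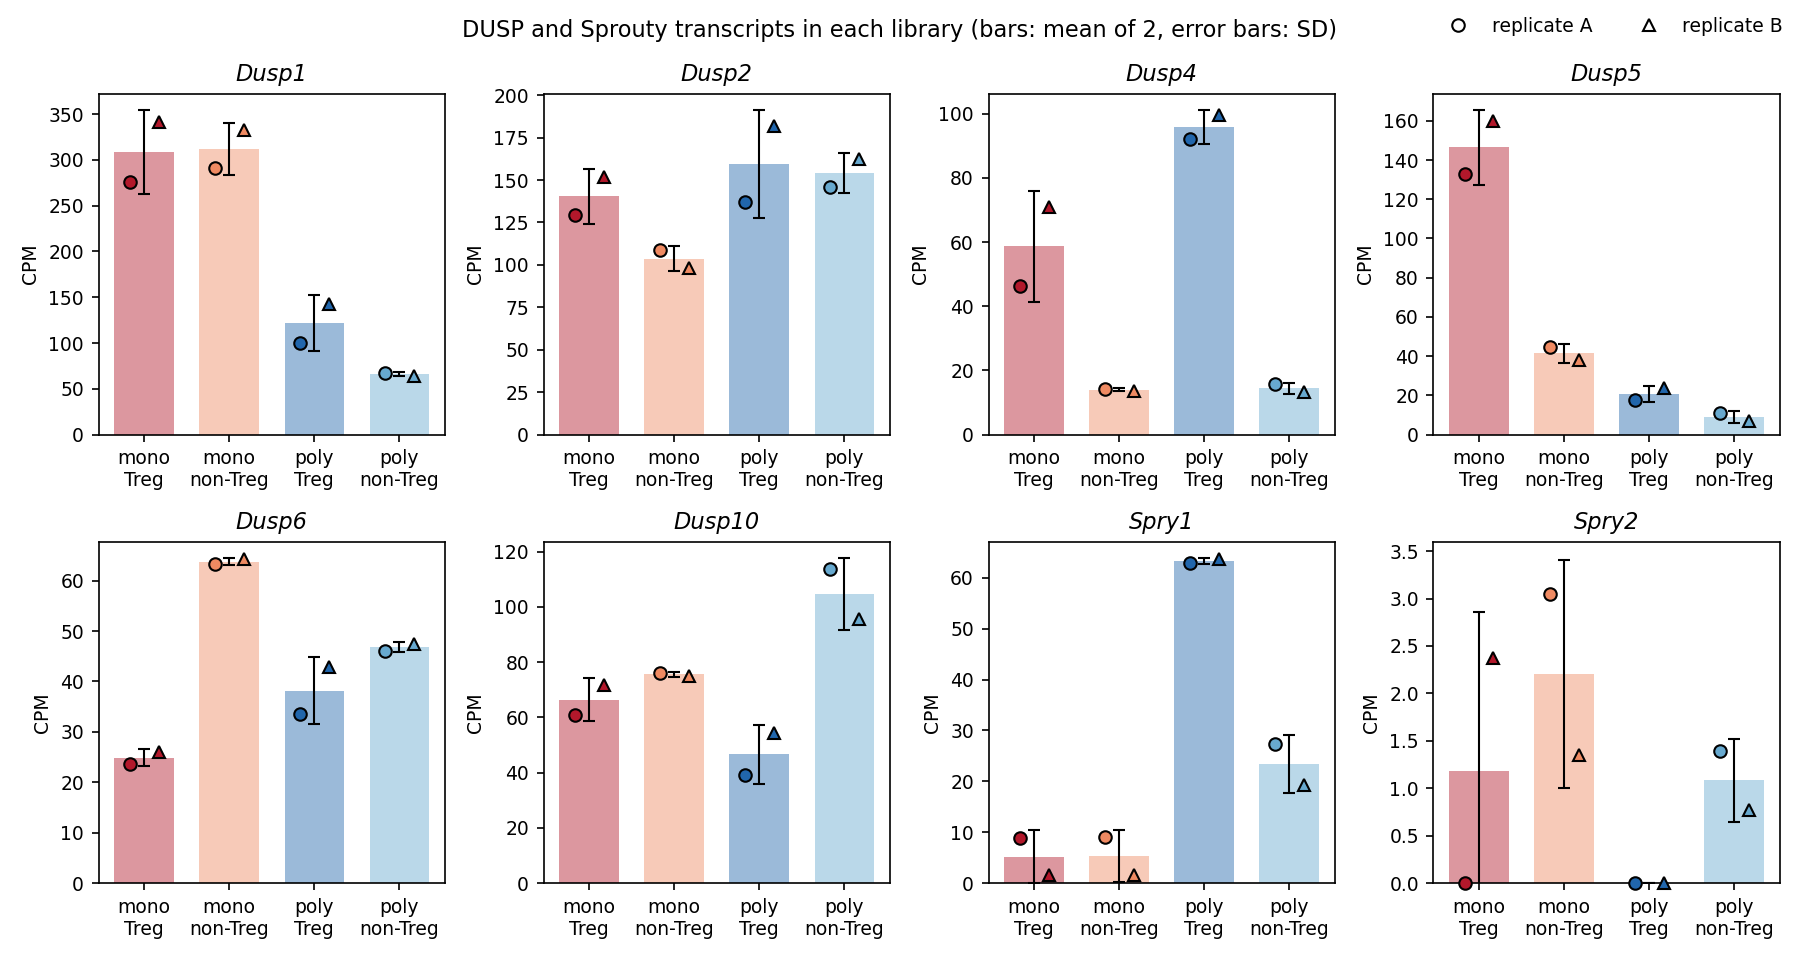
CPM (vertical axis, linear from 0) of each gene in the 8 libraries, with the mean of 2 libraries as a bar, the SD as an error bar and replicates A and B as circles and triangles. Dusp1 and Dusp5 are highest in the monoclonal groups, Dusp4 in the Treg groups, and Spry1 in polyclonal Treg libraries at 62.9 and 63.7 CPM.

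The make-up of the family differed between the 4 groups. Levels of different genes were set side by side per kb of the deposited transcript. The 8 genes summed to 392 and 477 CPM per kb in monoclonal Treg libraries and 319 and 323 in their non-Treg counterparts, and to 242 and 310 in polyclonal Treg libraries and 212 and 206 in their non-Treg counterparts. Dusp1 made up 36.4% and 37.0% of that sum in Treg and 47.2% and 53.1% in non-Treg libraries of monoclonal mice, against 21.3% and 23.9% in Treg and 16.5% and 16.2% in non-Treg libraries of polyclonal mice. In the polyclonal libraries Dusp2 was the leading member instead, at 35.2% and 36.5% in Treg and 42.7% and 48.9% in non-Treg libraries, and it lay between 18.9% and 21.2% in each monoclonal library. Dusp5 took 29.5% and 29.2% in monoclonal Treg libraries and at most 12.2% in any other. Dusp10 took 19.9% and 17.1% in polyclonal non-Treg libraries and at most 8.83% elsewhere. These shares depend on the deposited transcript lengths, of which that of Dusp5, 1150 bases, was the shortest.

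**Figure D2:**
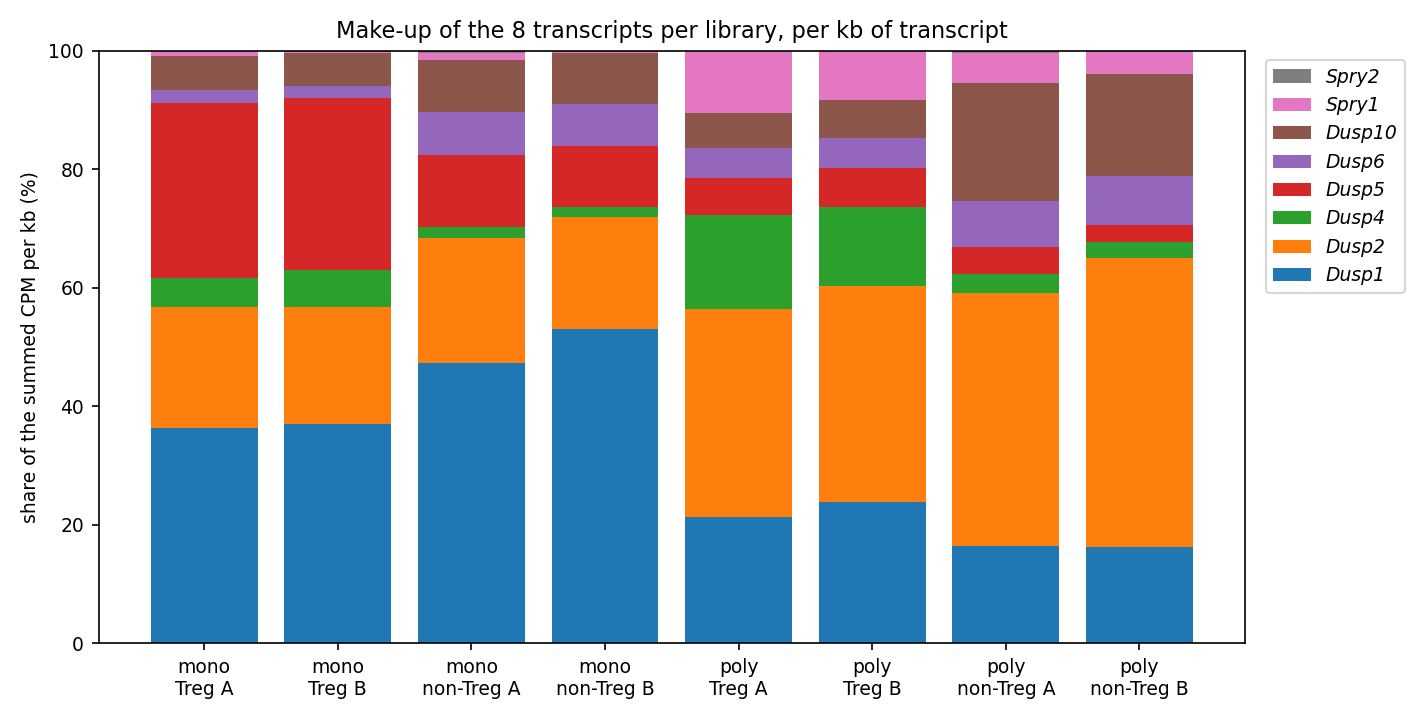
Share (vertical axis, percent) of each gene in the summed CPM per kb of the 8 genes, stacked for each of the 8 libraries. Dusp1 makes up 36.4% to 53.1% in monoclonal libraries, and Dusp2 is the leading member in the 4 polyclonal ones.

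The first comparison asked how Treg cells differed from non-Treg cells of the same mice. Dusp4 and Dusp5 rose in Treg cells of both kinds of mice. Dusp6 fell in monoclonal Treg cells, while Dusp1 rose and Dusp10 fell in polyclonal Treg cells. In monoclonal mice 2 of the 8 genes were higher and 1 lower, where 10.8% and 13.6% of all genes tested were called in these directions (24.4% in all). In polyclonal mice 3 were higher and 1 lower, where 4.63% and 3.28% of all genes were called (7.90% in all). The median log2 fold change of the 8 genes was -0.03 in monoclonal and 0.44 in polyclonal mice, against -0.02 and 0.00 over all genes tested. Both fold changes were fitted with limma on log2(CPM + 1), which understates the change of low genes.

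Dusp4, the MAP kinase phosphatase MKP2 (chromosome 8, 35870664 to 35882948 on mm9), measured 46.5 and 71.0 CPM in monoclonal Treg libraries, against 14.4 and 13.7 CPM in monoclonal non-Treg libraries. It measured 92.1 and 99.7 CPM in polyclonal Treg libraries, against 15.7 and 13.3 CPM in polyclonal non-Treg libraries. The Treg libraries lay above the non-Treg libraries without overlap in both mice, and the 4 non-Treg libraries all lay between 13.3 and 15.7 CPM. The log2 fold changes were 1.96 ± 0.23 (SE, limma, adjusted p = 3.03e-05) and 2.65 ± 0.23 (adjusted p = 3.63e-06).

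Dusp5, the nuclear ERK phosphatase (chromosome 19, 53603808 to 53615812), measured 133 and 160 CPM in monoclonal Treg libraries, against 44.8 and 38.1 CPM in monoclonal non-Treg libraries. In polyclonal mice it measured 17.8 and 23.6 CPM in Treg libraries, against 11.1 and 6.97 CPM in non-Treg libraries. The 4 groups did not overlap, and every monoclonal library was above every polyclonal one. The log2 fold change was 1.79 ± 0.24 in monoclonal mice (limma, adjusted p = 0.000109) and 1.13 ± 0.24 in polyclonal mice (adjusted p = 0.00812). The polyclonal call was lost without polyclonal non-Treg replicate B (adjusted p = 0.163) and when polyclonal libraries were fitted alone (adjusted p = 0.0938).

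Dusp6, the cytoplasmic ERK phosphatase MKP3 (chromosome 10, 98725865 to 98730123), measured 23.7 and 26.0 CPM in monoclonal Treg libraries, against 63.3 and 64.2 CPM in monoclonal non-Treg libraries. These were the lowest and the highest values of the series. The log2 fold change was -1.32 ± 0.19 (limma, adjusted p = 0.000163). In polyclonal mice it measured 33.5 and 42.8 CPM in Treg libraries, against 46.1 and 47.5 CPM in non-Treg libraries, a log2 fold change of -0.30 that was not called (95% interval -0.70 to 0.10, limma, adjusted p = 0.464). The dendritic, myeloid, antigen presentation and B cell marker sums of monoclonal mice were also lower in Treg than in non-Treg libraries. Neutrophil marker sums ran the other way, at 1176 against 364 CPM in replicate A and 183 against 68.6 CPM in replicate B. Markers called lower were 7 of 9 dendritic, 6 of 9 myeloid, 5 of 5 antigen presentation and 2 of 4 B cell genes tested. Over all genes 13.6% were called lower. The part of these transcripts in the Dusp6 result was not tested.

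Dusp1, the phosphatase MKP1 that acts on ERK, p38 and JNK (chromosome 17, 26642536 to 26645417), had the highest level per kb of the 8 genes in both monoclonal groups. It measured 276 and 341 CPM in monoclonal Treg libraries, against 292 and 332 CPM in monoclonal non-Treg libraries. These ranges overlapped, and the log2 fold change was -0.02 (95% interval -0.38 to 0.34, limma, adjusted p = 0.951). In polyclonal mice Dusp1 measured 99.9 and 143 CPM in Treg libraries, against 67.5 and 64.4 CPM in non-Treg libraries, a log2 fold change of 0.85 ± 0.17 (limma, adjusted p = 0.00481). That call was lost without polyclonal non-Treg replicate B (adjusted p = 0.0660), with polyclonal libraries fitted alone (0.0592) and with the libraries scaled to the CD3 genes (0.0819), with log2 fold changes of 0.81, 0.85 and 0.85.

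Dusp10, the p38 and JNK phosphatase MKP5 (chromosome 1, 185858340 to 185899515), measured 39.1 and 54.3 CPM in polyclonal Treg libraries, against 114 and 95.5 CPM in polyclonal non-Treg libraries. The log2 fold change was -1.16 ± 0.18 (limma, adjusted p = 0.000756). Natural killer, dendritic, myeloid and antigen presentation marker sums were also lower in polyclonal Treg than non-Treg libraries, without overlap. B cell, neutrophil and CD8 T cell marker sums overlapped. The part of these transcripts in the Dusp10 result was not tested. In monoclonal mice it measured 61.0 and 71.8 CPM in Treg libraries, against 76.2 and 74.9 CPM in non-Treg libraries, and the difference was not called (log2 fold change -0.19, 95% interval -0.58 to 0.20, limma, adjusted p = 0.502) except with the CD3 scaling (-0.78, adjusted p = 0.0217).

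Dusp2, also called PAC1 and found mainly in blood cells (chromosome 2, 127161895 to 127164113), varied least between libraries. It measured 129 and 152 CPM in monoclonal Treg libraries, against 109 and 98.4 CPM in monoclonal non-Treg libraries. The polyclonal values were 137 and 182 CPM in Treg libraries, against 146 and 162 CPM in non-Treg libraries. Neither difference was called. The log2 fold change in monoclonal mice was 0.43 (95% interval 0.10 to 0.77, limma, adjusted p = 0.0577), and it was -0.17 with the CD3 scaling, which moved the median of all genes by -0.56. It passed the threshold in a fit of only the monoclonal libraries (adjusted p = 0.0411) and without polyclonal Treg replicate A or B (0.0147 and 0.0153).

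Spry1, which encodes a Sprouty inhibitor of Ras and ERK signalling (chromosome 3, 37538872 to 37543521), measured 62.9 and 63.7 CPM in polyclonal Treg libraries, against 27.4 and 19.3 CPM in polyclonal non-Treg libraries. The groups did not overlap, but the log2 fold change of 1.42 ± 0.64 was not called (95% interval 0.02 to 2.82, limma, adjusted p = 0.258). It was called when polyclonal libraries were fitted alone (adjusted p = 0.0150), which leaves out the monoclonal libraries, where the replicates were far apart. There Spry1 measured 8.87 and 1.52 CPM in Treg replicates A and B, against 8.98 and 1.68 CPM in non-Treg replicates A and B. Replicate A was 5.82 times replicate B in Treg and 5.36 times in non-Treg libraries. Summed neutrophil markers were also higher in replicate A than in replicate B, at 1176 against 183 CPM in Treg and 364 against 68.6 CPM in non-Treg libraries, and their part in the Spry1 level was not tested.

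Spry2 (chromosome 14, 106291164 to 106296036) was close to the limit of detection. Monoclonal Treg replicates A and B held 0 and 42 reads, against 55 and 21 reads in their non-Treg counterparts. It had 0 reads in both polyclonal Treg libraries, against 22 and 12 reads in polyclonal non-Treg libraries. The mean of the polyclonal non-Treg libraries was 5.93 times a mean floor of 3 reads per library. That ratio covers only counting error in the 0 reads. It leaves out the spread between libraries, which ran from 0 to 42 reads within monoclonal Treg, and so sets no minimum for the difference. The polyclonal Treg effect was not called (log2 fold change -1.04, limma, adjusted p = 0.364). Spry2 passed in none of the 5 comparisons with limma on all 8 libraries. It passed without monoclonal Treg replicate B in the monoclonal Treg effect (adjusted p = 0.0409) and without replicate A between Treg cells (0.0255), and DESeq2 on recovered reads called the polyclonal Treg effect (0.0352) and the Treg cell comparison (0.0142).

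**Figure D3:**
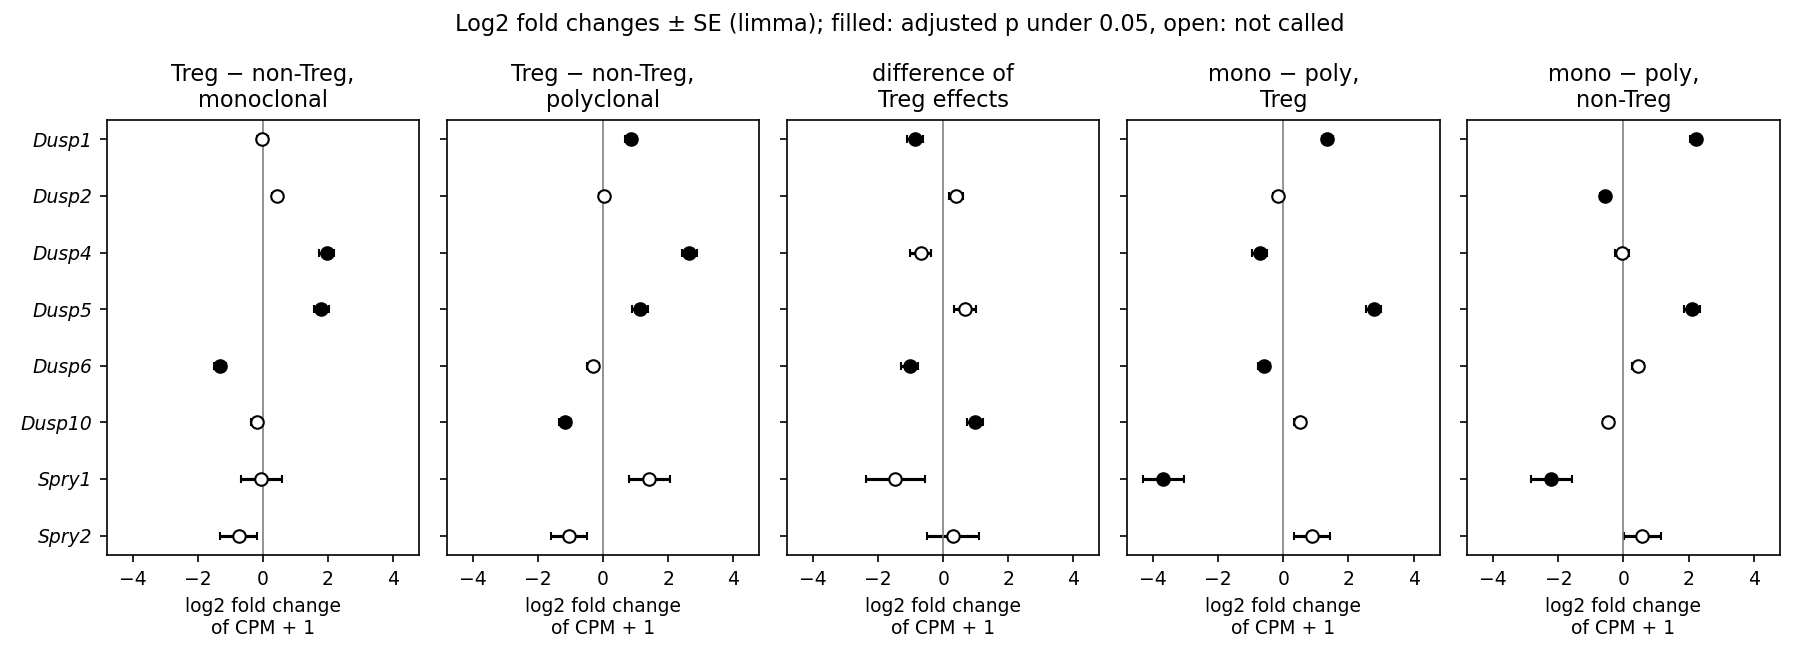
Log2 fold change of CPM + 1 (horizontal axis) with its SE for each of the 8 genes in the 5 comparisons. Filled points passed an adjusted p of 0.05 in limma and open points did not. Dusp4 and Dusp5 lie right of 0 in both Treg comparisons, and Spry1 lies at -3.69 and -2.22 in the comparisons between mice.

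The second comparison tested whether the Treg effect itself differed between monoclonal and polyclonal mice. It did for 3 of the 8 genes, 1 higher and 2 lower, where 3.64% and 5.56% of all genes were called (9.20% in all). The monoclonal minus the polyclonal effect was -1.03 ± 0.27 for Dusp6 (limma, adjusted p = 0.0270), -0.87 ± 0.24 for Dusp1 (adjusted p = 0.0349) and 0.97 ± 0.26 for Dusp10 (adjusted p = 0.0295). The Treg effects on Foxp3 and Il2ra also differed between the mice. In the same test 2 of 5 antigen presentation, 2 of 9 myeloid, 1 of 9 dendritic and 1 of 4 B cell markers were called lower. Higher were 3 of 7 T cell and 2 of 6 natural killer cell markers. The remaining markers of these 6 lists were not called. The part of all these markers in the Dusp1, Dusp6 and Dusp10 differences was not tested. The calls for these 3 members were fragile. All 3 were lost without either monoclonal non-Treg library and without either polyclonal non-Treg library, where adjusted p ran from 0.0713 to 0.204 over the 3 genes and their log2 differences kept their sign. With no filter, Dusp1 (0.107) and Dusp10 (0.0788) were lost as well. Dusp1 was also lost without monoclonal Treg replicate A (0.101), and Dusp10 without monoclonal Treg replicate B (0.0869), without polyclonal Treg replicate A (0.0516), by edgeR (0.0503) and with the CD3 scaling, where its difference was 0.38 (0.472). The Treg effects on Dusp4 (-0.69, 95% interval -1.37 to -0.0013) and Dusp5 (0.66, adjusted p = 0.261) were not shown to differ by limma (adjusted p = 0.210 for Dusp4), though Dusp4 passed with the CD3 scaling (-1.26, adjusted p = 0.0497).

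The third comparison set monoclonal against polyclonal cells of the same kind, and it held the largest changes of the family. Dusp1 and Dusp5 were higher and Spry1 lower in monoclonal mice, in Treg and in non-Treg cells alike. In Treg cells 2 of the 8 genes were higher and 3 lower, where 12.1% of all genes were called in each direction (24.2% in all). In non-Treg cells 2 were higher and 2 lower, where 12.1% and 7.35% of all genes were called (19.4% in all). The median log2 fold change of the 8 genes was 0.17 in Treg and 0.20 in non-Treg cells, against -0.03 and -0.07 over all genes tested. These comparisons share libraries with the Treg comparisons.

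Dusp5 averaged 146 ± 19.2 CPM in monoclonal Treg and 20.7 ± 4.06 CPM in polyclonal Treg libraries (SD, n = 2 each), and its log2 fold change was 2.77 ± 0.24 (limma, adjusted p = 1.38e-06). In non-Treg cells it averaged 41.4 ± 4.77 CPM in monoclonal and 9.02 ± 2.90 CPM in polyclonal libraries, a log2 fold change of 2.11 ± 0.24 (adjusted p = 1.47e-05). Dusp1 averaged 309 ± 45.9 CPM in monoclonal Treg and 121 ± 30.5 CPM in polyclonal Treg libraries (log2 fold change 1.35 ± 0.17, limma, adjusted p = 4.30e-05). Its non-Treg difference was larger, at 312 ± 28.7 CPM in monoclonal and 66.0 ± 2.20 CPM in polyclonal libraries (2.22 ± 0.17, adjusted p = 1.98e-07). Dendritic, myeloid and neutrophil marker sums were also higher in the monoclonal libraries, and their part in the Dusp1 and Dusp5 results was not tested.

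Spry1 averaged 5.20 ± 5.19 CPM in monoclonal Treg and 63.3 ± 0.524 CPM in polyclonal Treg libraries (SD, n = 2 each), and its log2 fold change was -3.69 ± 0.64 (limma, adjusted p = 0.00144). In non-Treg cells it averaged 5.33 ± 5.17 CPM in monoclonal and 23.4 ± 5.73 CPM in polyclonal libraries (-2.22 ± 0.64, adjusted p = 0.0300). The groups did not overlap in either comparison. The Treg call held in every alternative tried, while the non-Treg call was lost by edgeR (adjusted p = 0.120), by DESeq2 (0.200), with no filter (0.0912) and without monoclonal non-Treg replicate B (0.277), polyclonal Treg replicate A (0.0804) or B (0.0878), or polyclonal non-Treg replicate A (0.186) or B (0.0924).

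Smaller differences were called for 3 other members. In Treg cells Dusp4 fell by 0.73 ± 0.23 on the log2 scale (limma, adjusted p = 0.0304) and Dusp6 fell by 0.59 ± 0.19 (adjusted p = 0.0347) in monoclonal relative to polyclonal mice. Both calls were lost in a fit of only the Treg libraries (adjusted p = 0.0583 and 0.183) and with the CD3 scaling (0.0684 and 0.0962). Dusp4 was also lost with no filter (0.0610) and without monoclonal Treg replicate A (0.203, log2 fold change -0.43), monoclonal non-Treg replicate A or B (0.0508 and 0.0509) or polyclonal Treg replicate A or B (0.0670 and 0.0888). Dusp6 was lost without any 1 library other than polyclonal Treg replicate A, with adjusted p up to 0.144. In non-Treg cells Dusp2 averaged 104 ± 7.38 CPM in monoclonal and 154 ± 11.8 CPM in polyclonal libraries, and fell by 0.57 ± 0.16 (limma, adjusted p = 0.0187). That difference was -0.05 with the CD3 scaling (adjusted p = 0.904), which moved the median of all genes by 0.49 in this comparison. It was also lost with no filter (0.0555) and without any 1 of the 4 non-Treg libraries (0.0678 to 0.193). Dusp10 was not called in either cell kind, at 0.51 in Treg cells (95% interval 0.12 to 0.90, limma, adjusted p = 0.0535) and -0.46 in non-Treg cells (95% interval -0.85 to -0.07, adjusted p = 0.0956), and the non-Treg value was 0.057 with the CD3 scaling. The Treg difference passed with a filter of 5 CPM (0.0493), TMM scaling (0.0440), DESeq2 (0.0356) and without polyclonal Treg replicate B (0.00701). The non-Treg difference passed in a fit of the non-Treg libraries alone (0.00564) and without polyclonal Treg replicate A or B (0.0305 and 0.0322). Dusp6 was not called between non-Treg cells (0.44, adjusted p = 0.126) but passed with the CD3 scaling (log2 fold change 0.95) and in the fit of those libraries alone (adjusted p = 0.0140).

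Other genes of the pathway were taken from 7 lists, whose counts stand beside the shares of all genes tested: 10.8% higher and 13.6% lower in the monoclonal Treg effect, 4.63% and 3.28% in the polyclonal one, 12.1% in each direction between the mice in Treg cells, and 12.1% and 7.35% in non-Treg cells. The lists were not compared with each other or with all genes by a test. Among 9 other MAP kinase phosphatases tested, 1 was higher and 4 were lower in the Treg cells of monoclonal mice, with a median log2 fold change of -0.56. The largest decreases were Dusp16, a JNK and p38 phosphatase, at -1.63 ± 0.37, Dusp18 at -1.54 ± 0.49 and Dusp22 at -1.48 ± 0.34, and Dusp14 rose by 1.71 ± 0.47. Dusp16 measured 10.1 and 8.47 CPM in monoclonal Treg libraries, against 28.9 and 32.7 CPM in monoclonal non-Treg libraries. In polyclonal mice it measured 8.03 and 5.58 CPM in Treg libraries, against 3.10 and 1.16 CPM in non-Treg libraries, and it rose there (1.37 ± 0.37, limma, adjusted p = 0.0348), so that the difference of the 2 effects was -3.001 ± 0.525 (adjusted p = 0.00292). In non-Treg cells 4 of the 9 were higher and 1 lower in monoclonal than in polyclonal mice, led by Dusp16 at 3.41 ± 0.37 and Dusp9 at 2.74 ± 0.45. In Treg cells 1 was higher, Dusp3 at 2.31 ± 0.44.

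Spred genes encode relatives of Sprouty that also hold back Ras. Of 3 Sprouty and Spred genes tested, Spred1 and Spred3 fell in monoclonal Treg cells, by 1.42 ± 0.33 and 2.10 ± 0.45 on the log2 scale, and both were higher between the mice in monoclonal non-Treg cells, by 1.17 ± 0.33 and 2.65 ± 0.45. Spry3 and Spry4 did not pass the filter and reached at most 0.986 and 2.26 CPM in any library.

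Above the phosphatases, most of the 20 Ras, Raf, MEK and ERK genes tested were not called. The largest changes were in Ras activators. Rasgrp3 and Rasgrp4, found mainly in B and myeloid cells, were higher in monoclonal than in polyclonal cells, by 3.99 ± 0.37 and 2.69 ± 0.25 in Treg and by 4.92 ± 0.37 and 4.20 ± 0.25 in non-Treg cells. Rasgrp2 fell in polyclonal Treg cells by 1.23 ± 0.11. The counts over this list were 1 higher and 2 lower in monoclonal Treg cells, 1 lower in polyclonal Treg cells, 3 higher and 2 lower between the mice in Treg cells, and 4 higher and 3 lower in non-Treg cells. Of 8 genes for RasGAPs, which switch Ras off, 1 was higher and 2 were lower in monoclonal Treg cells, where 24.4% of all genes were called, and 1 was higher and 2 were lower in polyclonal Treg cells, where 7.90% were called. Nf1 fell in monoclonal Treg cells, and so did Dab2ip, by 1.78 ± 0.26, whereas Dab2ip rose in polyclonal Treg cells by 0.97 ± 0.26. Between the mice 2 were higher and 4 lower in Treg and 1 higher and 4 lower in non-Treg cells.

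Of 16 genes of the p38 and JNK branch, 2 were higher and 2 lower in monoclonal Treg cells and 2 were higher in polyclonal Treg cells. Gadd45b, an activator of this branch, rose in both, by 1.41 ± 0.26 and 0.94 ± 0.26. In monoclonal Treg cells Gadd45a also rose, by 1.22 ± 0.31, while Gadd45g fell by 1.54 ± 0.36. Mapk14, which encodes p38α, fell there by 1.27 ± 0.12. Between the mice 1 was higher and 1 lower in Treg and 3 were higher in non-Treg cells. Of 9 kinases that ERK or p38 activates, 1 was higher in monoclonal Treg and 2 higher and 1 lower in polyclonal Treg cells, and 2 were higher in monoclonal than in polyclonal cells of each kind. Mapkapk3 rose in both Treg comparisons, by 1.26 ± 0.14 and 0.49 ± 0.14.

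The last list held transcription factors and targets of ERK signalling, not all of them induced by ERK. Of 19 tested, 2 were higher and 8 lower in monoclonal Treg cells (median log2 fold change -0.40), against 10.8% and 13.6% of all genes. In polyclonal Treg cells 3 were higher and 3 lower (median 0.16), against 4.63% and 3.28% of all genes. Between the mice 9 were higher and 5 lower in Treg cells and 11 were higher and 2 lower in non-Treg cells (medians 0.63 and 1.16). Fos, an immediate early gene, measured 264 and 259 CPM in Treg and 701 and 716 CPM in non-Treg libraries of monoclonal mice, against 22.7 and 31.3 CPM in Treg and 54.6 and 40.3 CPM in non-Treg libraries of polyclonal mice. Dusp1 was likewise higher in every monoclonal library, while Egr2, whose product restrains T cell activation, was lowest in monoclonal Treg libraries at 15.4 and 12.6 CPM, against 50.8 and 69.1 CPM in polyclonal Treg libraries. The dendritic and myeloid marker sums ran in the same order of groups as Fos within each kind of mouse, and their part in these results was not tested.

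**Figure D4:**
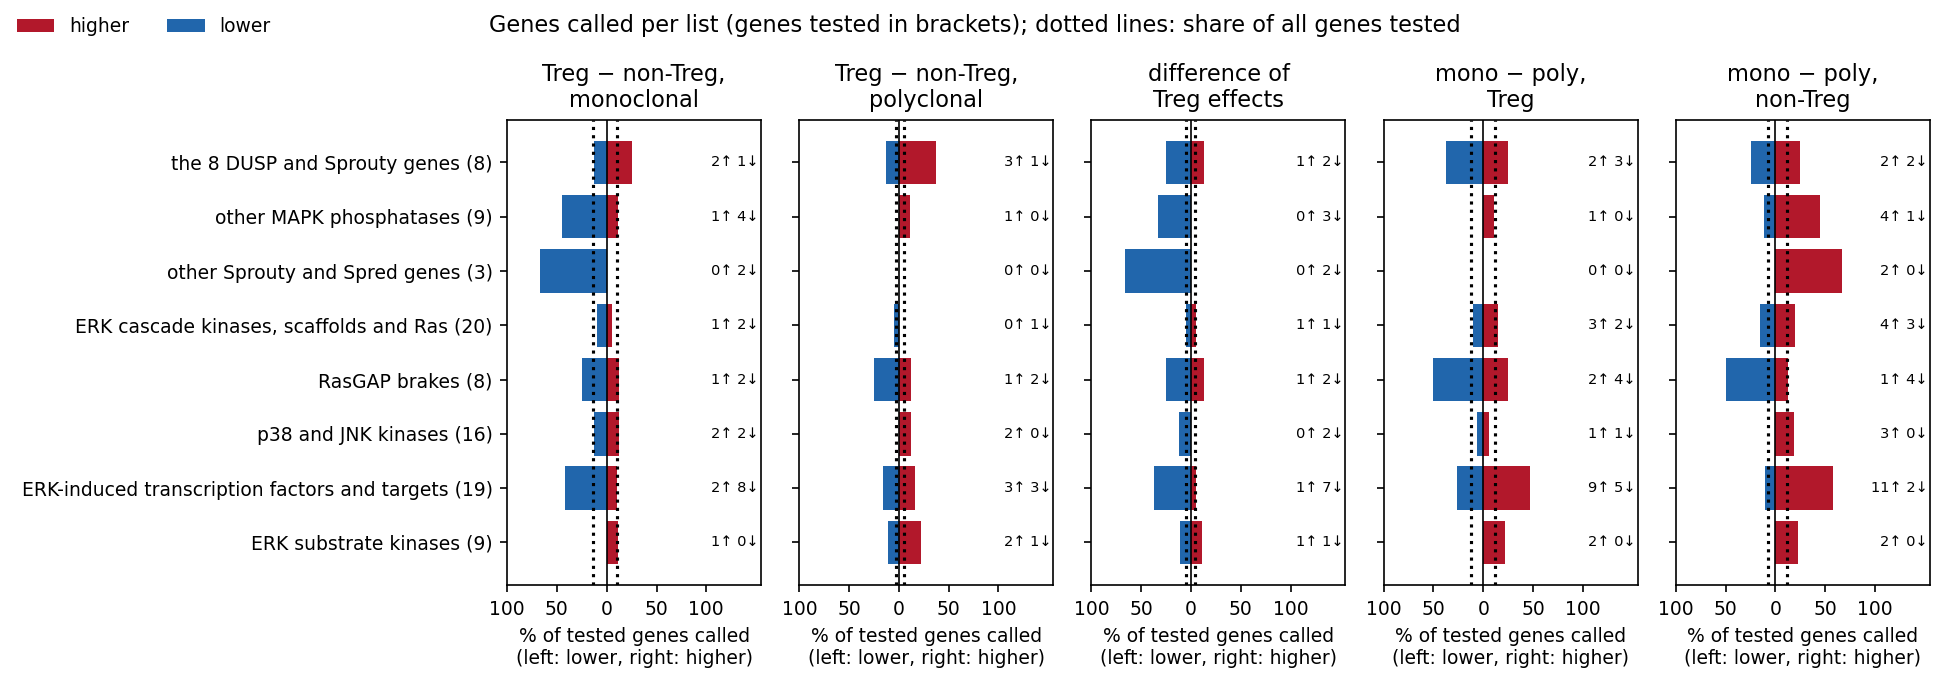
Percent of tested genes of each list called higher (right of 0, red) or lower (left of 0, blue) by limma in the 5 comparisons, with the counts at the right edge and the number tested in brackets. Dotted lines give the share of all genes tested. The list labelled ERK-induced, which also holds other transcription factors of the pathway, has 11 of 19 genes higher in the monoclonal than the polyclonal non-Treg libraries.

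The genes whose pattern was most like each member were taken by Pearson's r of log2(CPM + 1) over the 8 libraries, from 9194 genes, as a description. The points share libraries, and 8 libraries in 4 groups give many high values. For Dusp5 these were Pim1 (r = 0.99), Il1rl1 (0.99) and Sla (0.99). For Dusp4 they were Lclat1 (0.99), Wls (0.98) and Zfp36l1 (0.98), and for Dusp1 they were Slc15a3 (0.99), Orai3 (0.99) and Il10ra (0.99). Spry1 was most like Minpp1, Cyth3 and Tars2 (0.97 to 0.98), Dusp6 most like Gnptab, Polb and Dlst (0.97), and Dusp2 most like Ppp4r2, Lcp2 and Phf23 (0.97 to 0.98). Dusp10 was most like Arhgap29, Tspan14 and Cyp2s1 (0.94 to 0.95), and Spry2 most like Fam98c, Osgep and H2-T24 (0.92 to 0.96). Among the members themselves, Dusp1 and Dusp5 ran together (r = 0.89), while Dusp4 ran against Dusp10 (-0.80) and Dusp1 against Spry1 (-0.75).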

How the data were processed

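The authors deposited 1 table of 24016 genes, with mm9 positions and levels as CPM (per 1000000 gene-assigned reads). Per the submitters' processing notes, STAR 2.4.1a, Trimmomatic 0.33, HOMER 4.7, edgeR, FastQC 0.10.1, CASAVA 1.8.2 and build mm9 were used, with no role stated. Per the labels' protocols, strand was kept, but the sources used here give neither whether counting used it nor how reads of several genes were handled. In every library 100% of the values were whole multiples of 1 read within 0.01 read.

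limma 3.58.1 (R 4.3.3) was fitted to log2(CPM + 1), 1 mean per group, a mean-variance trend and robust spread (4 residual degrees of freedom, median prior 10.0). It ran over 12881 genes reaching 1 CPM in 2 or more libraries, 2-sided, with Benjamini-Hochberg adjustment over all of them and a threshold of 0.05. It was tested on simulated data with 1 small dispersion for all genes. That setting does not cover replicates as far apart as those of Spry1 and Spry2. Alternatives were a pseudocount of 0.25 CPM, no filter, a filter of 5 CPM, TMM scaling, scaling to Cd3e, Cd3d and Cd3g, fits of only the libraries compared, a replicate block, edgeR 4.0.16 and DESeq2 1.42.0 on the recovered reads, and leaving out each library. A group left with 1 library is assumed to vary like the others. Floors cover counting error only.

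The members and lists were chosen with earlier results of these data known. From each pathway list, at most 3 called genes a direction and comparison were named, by size of change, together with Egr2 and Fos. Marker genes were named where at 0 or for their replicate ratio. Foxp3 and Il2ra were named because their Treg effects differed between the mice. Spry3 and Spry4 were named after their values were seen. For each member, the 3 genes with the highest correlation were named, among genes whose mean log2 level reached 3.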

Additional observations from a re-analysis of the deposited data

Results flagged for a closer look

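The Treg effect differed between monoclonal and polyclonal mice for 3 of the 8 genes by the test of the difference in limma. The monoclonal minus the polyclonal log2 effect was -0.87 ± 0.24 for Dusp1 (adjusted p = 0.0349), -1.03 ± 0.27 for Dusp6 (adjusted p = 0.0270) and 0.97 ± 0.26 for Dusp10 (adjusted p = 0.0295). Dusp1 was higher in Treg than in non-Treg libraries of polyclonal mice, where the Dusp10 values were lower, and the Dusp6 values were lower in Treg libraries of monoclonal mice. Each of these calls rests on both non-Treg libraries of both kinds of mice. The Treg effects on Foxp3, Il2ra and some markers of other cell types also differed between the mice, and their part was not tested.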

How the results depend on the processing

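The calls for Dusp4, Dusp5 and Dusp6 in monoclonal Treg cells, for Dusp4 and Dusp10 in polyclonal Treg cells, for Dusp1, Dusp5 and Spry1 between the mice in Treg cells, and for Dusp1 and Dusp5 in non-Treg cells kept their direction and stayed past the threshold in every alternative tried. Among the alternative values for single members, 573 kept sign and call, 55 lost a call, 19 gained one and 20 changed sign, all 20 for differences that were not called. With the replicate block the counts of members called were 3, 4, 3, 5 and 4 in the order of comparisons used above (monoclonal Treg effect, polyclonal Treg effect, their difference, monoclonal against polyclonal Treg, the same for non-Treg), as without it, and the block changed no member's call. Over all genes tested, the A minus B deviations of same-lettered libraries correlated between -0.093 and 0.097 from group to group, although single genes such as Spry1 deviated together in both monoclonal groups.

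Over all genes, scaling to the CD3 genes gave 496 calls in the polyclonal Treg effect against 1018, and 1707 between Treg cells against 3116, with 3 members called against 5. The CD3 scaling rests on 3 genes and set the polyclonal Treg replicates apart. Its factors were 0.877 for replicate A and 1.33 for replicate B, where the TMM factors were 1.02 and 1.03. The CD3 scaling moved the share of higher among called genes to 8.13% against 44.4% in the monoclonal Treg effect, 5.23% against 39.6% in the difference and 95.4% against 62.2% between non-Treg cells. Fits of only the libraries compared gave 673, 1721 and 4413 calls in the polyclonal Treg effect, between Treg and between non-Treg cells (against 1018, 3116 and 2505), with 3 members between Treg cells. With no filter the difference had 756 calls against 1185 and 1 member against 3, and the non-Treg comparison 2 members against 4. Leaving out 1 library gave 1306 to 3774 calls in the monoclonal Treg effect, 429 to 1231 in the polyclonal one, 361 to 1658 in the difference and 1373 to 3227 between non-Treg cells. Members called then ran from 2 to 4 in the polyclonal Treg effect, 0 to 3 in the difference (by limma, with 3 or 4 of 8 at an unadjusted p under 0.05 where none was called), 3 to 4 between Treg and 2 to 4 between non-Treg cells.

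Differences that were not called changed sign as follows. With the CD3 scaling Dusp2 was -0.17 in the monoclonal Treg effect and -0.20 in the difference, Spry2 was -0.11 in the difference, and Dusp4 and Dusp10 were 0.45 and 0.057 between non-Treg cells. Dusp4 there was 0.032 with TMM scaling, 0.030 by edgeR, 0.025 by DESeq2 and -0.15 to 0.071 without 1 library. Without 1 library, the monoclonal Treg effect ran from -0.17 to 0.13 for Dusp1, -1.03 to 0.93 for Spry1 and -1.63 to 0.13 for Spry2. The polyclonal one ran from -0.16 to 0.24 for Dusp2, the difference from -0.58 to 1.17 for Spry2, and the Treg cell comparison from -0.38 to 0.031 for Dusp2 and 0.00 to 1.75 for Spry2. The cause was not tested. Depth limits Spry2 most among the 8 genes, with 0 to 55 reads per library. Spry1 was also low in replicate B of the monoclonal groups, with 27 reads in Treg and 26 reads in non-Treg cells.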

Other observations

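The replicate pattern of Spry1 was uncommon in the table. Of 12881 genes tested, 17 had a replicate A value at least 4 times that of replicate B in both monoclonal groups, as Spry1 did, and 29 had the reverse. The 17 included 4 of the 6 neutrophil markers, S100a8, S100a9, Camp and Ngp, with ratios of 4.41 to 8.92. The fold of 4 was chosen after the values of Spry1 were seen. In the polyclonal libraries Spry1 was 62.9 and 63.7 CPM in Treg and 27.4 and 19.3 CPM in non-Treg replicates A and B.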
